A study of Mus musculus with 4 samples.

Results

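Transcripts of 48 genes of the G2 phase and mitosis were followed in single hematopoietic stem cells (HSCs) of mouse bone marrow. The genes were a given list, from Hmgb2 to Knstrn, and all 48 had a row among the 31053 genes of the count matrices. Cells came from 2 male mice aged 14 weeks that carried Tie2-bG-Micm, a Cre transgene under the Tie2 promoter of endothelial and blood stem cells, and the RosaYFP reporter. Both sorted populations shared these alleles, and the sources used here do not say whether Cre had been activated. From each mouse, 2 gates were sorted, LT-HSC for long-term HSCs and ST-HSC for short-term ones. Each gate took lineage-negative cells with Kit and Sca1 and without CD48. The LT-HSC gate required CD150, the product of Slamf1, and the ST-HSC gate required its absence. The 4 libraries were droplet libraries of 3' ends, in which each captured molecule is counted once through a unique molecular identifier (UMI).

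Cells divide by copying DNA in S phase, passing through G2 and separating the chromosomes in mitosis. Cyclin B with its kinase Cdk1 starts mitosis, condensins and topoisomerase II shape the chromosomes, and kinetochores attach them to spindle microtubules. The anaphase-promoting complex then marks cyclin B and other proteins for destruction, so that the cell can exit mitosis. Many of these transcripts are made late in the cycle and are scarce in resting cells. Most HSCs of the adult bone marrow rest outside the cycle, and cells of the LT-HSC gate are known to divide more rarely than their progeny.

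A barcode counted as a cell if it held 1000 or more genes and 2000 or more UMIs, no more than 10% of them mitochondrial. This kept 22 of 39553 barcodes of LT-HSC mouse 1, 1217 of 1288 of LT-HSC mouse 2, 2633 of 2793 of ST-HSC mouse 1 and 1707 of 1784 of ST-HSC mouse 2. The kept cells held 115305 UMIs in LT-HSC mouse 1 and between 13249904 and 27870823 in the other libraries. LT-HSC mouse 1 thus stands apart, and its barcodes had a median of 285 UMIs. Its 39553 barcodes together held 13575402 UMIs, and this sum is given beside its kept cells. Of the kept barcodes, 1 was shared between LT-HSC mouse 2 and ST-HSC mouse 2 and 1 between the ST-HSC libraries. The gates could be told apart by their markers. A list of 15 genes of long-term HSCs summed to 2281 and 1824 CPM (UMIs per 1000000 UMIs) in the LT-HSC libraries and to 1561 and 1482 in the ST-HSC libraries. A list of 12 multipotent progenitor genes summed to 199 and 296 CPM against 1305 and 1327. The 2281 and 199 CPM rest on the 22 kept cells of LT-HSC mouse 1. Of the 15 long-term genes, 10 were higher in LT-HSC by the edgeR test described below, while others, among them Hlf and Procr, were not.

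Many of the members, though not all, share a promoter pattern that the list did not use. Genes of this phase are known for a CCAAT box and a nearby cell cycle genes homology region (CHR), which binds the MuvB complex. RefSeq promoters of GRCm38.p6, from 250 bases before to 50 after the start, were matched by symbol for 43 of the 48 members, which gave 47 windows of 300 bases. Tpx2, Smc4, Aurkb, Dlgap5 and Cdca2 had no entry. The letters TTTGAA of the CHR stood on either strand in 31 of 47 windows (66.0%). Of all 32851 RefSeq promoters 17.9% held them, and of the promoters of genes tested between the gates 12.4%. CCAAT stood in 36 of 47 (76.6%), against 37.4% of all promoters and 37.9% of those of tested genes. Both motifs were found in 26 of 47 windows (55.3%) and in 6.95% of all promoters. From 100 bases before to 50 after the start, 72.3% of the member windows held CCAAT and 55.3% held TTTGAA, against 23.4% and 8.01% of all promoters. The 2 motifs can overlap by a single base. Such matches describe letters and do not show that a factor binds.

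Below are the promoters of the 4 genes that stand for G2 and for mitosis here, Top2a, Mki67, Cenpf and Cdc20, and of Cdk1 and Nusap1, the 2 members with the smallest adjusted p between the gates by edgeR, a call that several alternatives lose. Each runs 5′ to 3′ along the gene's strand from 250 bases before to 30 after the start, in GRCm38.p6. They lie at chr11:99024160-99024439, chr7:135716350-135716629, chr1:189688057-189688336, chr4:118437314-118437593 and chr10:69352883-69353162, all on the minus strand, and for Nusap1 at chr2:119618048-119618327 on the plus strand. Each covers the region upstream of the first exon and the first bases of its 5' end. Capitals mark TTTGAA or its reverse TTCAAA, and CCAAT or its reverse ATTGG.
Top2a: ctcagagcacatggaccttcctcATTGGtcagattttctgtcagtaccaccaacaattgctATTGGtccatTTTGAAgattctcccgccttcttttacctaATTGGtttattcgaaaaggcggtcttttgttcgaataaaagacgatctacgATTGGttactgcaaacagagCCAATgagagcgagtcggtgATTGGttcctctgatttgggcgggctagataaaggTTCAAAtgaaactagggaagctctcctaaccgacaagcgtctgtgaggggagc
Mki67: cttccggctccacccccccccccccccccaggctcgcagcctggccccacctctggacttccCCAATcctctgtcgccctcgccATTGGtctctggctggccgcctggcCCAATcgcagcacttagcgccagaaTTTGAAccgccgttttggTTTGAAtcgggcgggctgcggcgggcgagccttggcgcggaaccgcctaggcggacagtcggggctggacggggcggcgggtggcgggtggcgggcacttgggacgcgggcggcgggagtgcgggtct
Cenpf: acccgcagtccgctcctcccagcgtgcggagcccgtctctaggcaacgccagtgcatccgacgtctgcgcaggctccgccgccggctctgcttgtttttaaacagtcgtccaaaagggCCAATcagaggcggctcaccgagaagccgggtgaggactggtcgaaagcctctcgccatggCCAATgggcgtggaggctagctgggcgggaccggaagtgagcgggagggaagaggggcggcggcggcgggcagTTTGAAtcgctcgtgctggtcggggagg
Cdc20: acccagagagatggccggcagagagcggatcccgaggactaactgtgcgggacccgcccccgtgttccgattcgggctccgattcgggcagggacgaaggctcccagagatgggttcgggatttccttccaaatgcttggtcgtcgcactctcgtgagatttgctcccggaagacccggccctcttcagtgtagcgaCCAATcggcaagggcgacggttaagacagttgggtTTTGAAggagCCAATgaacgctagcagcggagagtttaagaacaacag
Cdk1: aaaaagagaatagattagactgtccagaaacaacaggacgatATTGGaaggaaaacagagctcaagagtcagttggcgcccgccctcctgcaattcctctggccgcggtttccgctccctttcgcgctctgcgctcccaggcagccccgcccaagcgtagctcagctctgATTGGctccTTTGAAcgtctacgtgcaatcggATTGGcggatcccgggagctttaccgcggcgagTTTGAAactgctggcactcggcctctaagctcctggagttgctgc
Nusap1: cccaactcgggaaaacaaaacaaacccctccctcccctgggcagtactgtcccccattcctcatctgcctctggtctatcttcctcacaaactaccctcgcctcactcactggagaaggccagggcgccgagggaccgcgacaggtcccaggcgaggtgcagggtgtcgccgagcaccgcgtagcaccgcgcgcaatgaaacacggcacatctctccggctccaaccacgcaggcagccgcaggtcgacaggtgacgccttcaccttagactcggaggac
The Top2a promoter held 6 CCAAT boxes and 2 CHR motifs. Mki67 and Cdk1 each held 3 and 2, and Cenpf and Cdc20 each held 2 and 1. In Cdc20, the CHR began 18 bases before the start and a CCAAT box 53 bases before it. The Nusap1 window held neither run of letters.

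The question here was how abundant these transcripts were in each gate, in how many cells, and whether G2 and mitotic members stood in the same proportion. The 48 members together made up 1431 CPM in the kept cells of LT-HSC mouse 1 (165 UMIs), 2096 in LT-HSC mouse 2, 2063 in ST-HSC mouse 1 and 1856 in ST-HSC mouse 2. The gates overlapped. Over all its barcodes, LT-HSC mouse 1 had 1827 CPM. The LT-HSC libraries averaged 1764 ± 470 (SD, n = 2) and the ST-HSC libraries 1960 ± 146 (SD, n = 2), a difference of -196 CPM. An exact two-sided permutation test over the 4 libraries gave p = 1, where the smallest possible value is 0.33. With all barcodes of LT-HSC mouse 1 the difference was 1.95 CPM.

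**Figure D1:**
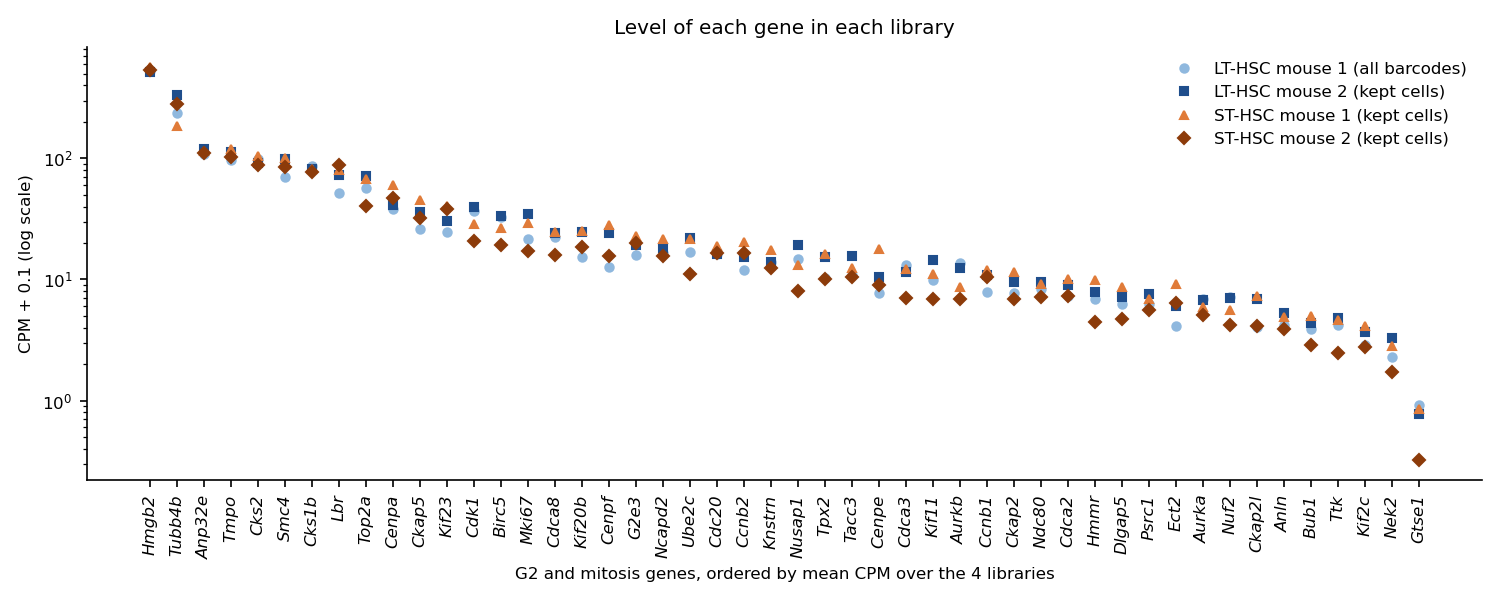
Level of each of the 48 genes in each library, as CPM plus 0.1 on a log axis, with genes on the horizontal axis in the order of their mean. LT-HSC mouse 1 is shown over all barcodes and the other libraries over kept cells. The points of the 4 libraries lie close together for most genes, and those of ST-HSC mouse 2 are often the lowest.

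In the 22 kept cells of LT-HSC mouse 1, 35 of the 48 members had fewer than 3 UMIs and 14 had none. The levels that follow are therefore given for that library over all its barcodes, and libraries are named in the order LT-HSC mouse 1, LT-HSC mouse 2, ST-HSC mouse 1 and ST-HSC mouse 2. Whether those barcodes hold cells or free RNA was not tested. Since each molecule gives 1 tag they were not divided by gene length.

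Among the cyclins and kinase partners, Cks2 and Cks1b, small proteins that bind Cdk1, had the highest levels. Cks2 stood at 98.9, 92.1, 104 and 88.5 CPM. Cks1b stood at 86.6, 82.2, 81.9 and 76.4 CPM. Cdk1, the kinase that drives entry into mitosis, stood at 36.3, 39.3, 28.5 and 20.6 CPM. In Cdk1 both LT-HSC libraries lay above both ST-HSC libraries. The B-type cyclins that activate Cdk1 were lower: Ccnb2 stood at 11.9, 15.1, 20.4 and 16.5 CPM and Ccnb1 at 7.73, 10.9, 11.9 and 10.3 CPM. Ccnb2 lay below both ST-HSC libraries in both LT-HSC libraries, while the gates overlapped for Ccnb1.

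Of the 6 genes of protein destruction and the spindle checkpoint, Ube2c and G2e3 had the highest mean level over the kept cells. Ube2c, the ubiquitin-conjugating enzyme of the anaphase-promoting complex, stood at 16.9, 21.9, 21.3 and 10.9 CPM. G2e3, a ubiquitin ligase, stood at 15.8, 19.1, 22.6 and 19.8 CPM. Cdc20, which activates the anaphase-promoting complex, stood at 16.0, 16.0, 18.8 and 16.5 CPM, its 2 LT-HSC values lying just below its 2 ST-HSC values. The group also held Bub1 and Ttk, the checkpoint kinases, at 2.36 to 4.92 CPM.

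Mitotic kinases and their partners included Birc5 (survivin) and Cdca8 (borealin), subunits of the chromosomal passenger complex. Birc5 stood at 32.9, 33.4, 26.4 and 19.2 CPM, and Cdca8 at 22.1, 24.3, 24.6 and 15.8 CPM. Aurkb, the kinase of that complex, stood at 13.6, 12.4, 8.61 and 6.86 CPM, and its paralog Aurka, the centrosome kinase, at 6.85, 6.72, 5.85 and 4.94 CPM. For Birc5, Aurkb and Aurka both LT-HSC libraries lay above both ST-HSC libraries.

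At kinetochores and centromeres, Cenpa, the histone H3 variant of centromeres, stood at 38.0, 40.8, 60.5 and 46.5 CPM, with both ST-HSC libraries above both LT-HSC libraries. Cenpf, a large kinetochore protein of late G2 and mitosis, stood at 12.5, 24.3, 28.2 and 15.4 CPM. Its highest and second lowest values came from the ST-HSC gate. Among spindle genes, the tubulin Tubb4b stood at 239, 331, 187 and 281 CPM and the microtubule polymerase Ckap5 at 26.0, 35.6, 45.1 and 31.9 CPM. Within each gate, Tubb4b was higher in mouse 2 than in mouse 1. Nusap1, which bundles spindle microtubules, stood at 14.7, 19, 13.0 and 7.96 CPM, both LT-HSC libraries lying above both ST-HSC libraries.

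Chromosome structure genes were led by Hmgb2, a DNA-bending protein, at 530, 517, 571 and 532 CPM. Anp32e, a histone chaperone, stood at 108, 118, 115 and 111 CPM. Top2a, the topoisomerase that untangles sister chromatids, stood at 56.4, 71.5, 67.2 and 40.5 CPM. Mki67, the coat protein of mitotic chromosomes known as Ki-67, stood at 21.4, 34.7, 29.3 and 17.2 CPM. In Top2a and Mki67 LT-HSC mouse 2 was the highest and ST-HSC mouse 2 the lowest of the libraries, so the gates overlapped. At the nuclear envelope, Tmpo stood at 97.7, 113, 118 and 102 CPM and Lbr at 51.6, 73.1, 80.3 and 88.7 CPM, and Lbr was lower in both LT-HSC libraries. In cytokinesis, Kif23, a motor of the central spindle, stood at 24.5, 30.1, 40.2 and 37.7 CPM, and Ect2, which activates RhoA at the cleavage furrow, at 4.05, 5.96, 9.01 and 6.27 CPM. Both were lower in the LT-HSC libraries.

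Counted in this way, both LT-HSC libraries lay above both ST-HSC libraries for 7 of the 48 members, Cdk1, Nusap1, Birc5, Nuf2, Cks1b, Aurkb and Aurka. Of all 12656 genes tested, 14.5% did so. They lay below for 8 members, Hmgb2, Ccnb2, Cdc20, Ect2, Kif23, Lbr, G2e3 and Cenpa, against 31.2% of all genes. The ST-HSC libraries also differed between the mice: 46 of the 48 members were higher in mouse 1 than in mouse 2, where 56.7% of all genes were. Neutrophil markers moved with this difference, their 10 genes summing to 1062 CPM in ST-HSC mouse 1 and 2391 in ST-HSC mouse 2. Their part in it was not tested. In the LT-HSC libraries they summed to 520 and 500 CPM, so they differed between the gates as well.

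The gates were then compared over the summed counts of the kept cells with edgeR's quasi-likelihood test, with Benjamini-Hochberg adjustment over 12656 genes and a threshold of 0.05. Of the members 47 passed the low-count filter, all but Gtse1. Cdk1 and Nusap1 were higher in LT-HSC, 2 of 47, while 3.60% of all genes tested were, so that the count lay near this background. The log2 fold change of Cdk1 was 0.66 (SE 0.21, edgeR adjusted p = 0.0287) and that of Nusap1 was 0.81 (SE 0.24, edgeR adjusted p = 0.0165). In the kept cells of LT-HSC mouse 1 these rest on 4 UMIs of Cdk1 (34.7 CPM) and 1 UMI of Nusap1 (8.67 CPM). For Nusap1 that level lay below ST-HSC mouse 1. Neither passed without LT-HSC mouse 1 (adjusted p = 0.099 and 0.0968), without LT-HSC mouse 2 (0.891 and 0.918) or without ST-HSC mouse 2 (0.776 and 0.114), and without ST-HSC mouse 1 Cdk1 did not (0.26). With DESeq2 neither passed.

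No member was higher in ST-HSC by edgeR or by DESeq2, where 3.13% of all genes were by edgeR. At an unadjusted p under 0.05, edgeR had 6 members higher in LT-HSC and Cenpa alone in ST-HSC, 7 of 47 where 13.6% of all genes had such a p, and DESeq2 had 0 in either direction. The median log2 fold change of the members was 0.10, that of all genes -0.02. Top2a had 0.30 (SE 0.19) and Mki67 0.50 (SE 0.21), with edgeR adjusted p of 0.634 and 0.177. Cenpf and Cdc20 did not pass either. The fit weighs a library by its counts, so the 22 cells of LT-HSC mouse 1 have little weight.

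Libraries of the same mouse came from the same animal, and with the mouse as a block 7 members were higher in LT-HSC, against 3.54% of all genes. These were Cdk1, Nusap1, Ube2c, Top2a, Mki67, Aurkb and Kif11, a spindle motor. Their log2 fold changes included 0.57 for Top2a, 0.81 for Mki67 and 1.03 for Kif11, with edgeR adjusted p of 0.0349, 0.02 and 0.00042. Within the mice the direction was not the same. All 7 were higher in LT-HSC in mouse 2. Over the kept cells of mouse 1, Top2a (-1.89), Mki67 (-1.65), Ube2c (-1.21), Aurkb (-3.26) and Nusap1 (-0.53) were lower, as log2 differences of CPM plus 1. Cdk1 (0.27) and Kif11 (0.60) were higher there. These genes had 0 to 4 UMIs each in LT-HSC mouse 1. In mouse 2, 40 of the 48 members were higher in LT-HSC, with a median log2 difference of 0.38 on CPM plus 1, where 51.4% of all genes were higher. In mouse 1, 8 of 48 were higher over the kept cells, with a median of -0.59, where 40.5% of all genes were higher. Over all barcodes of LT-HSC mouse 1, 10 of 48 were higher in LT-HSC, where 29.5% of all genes were.

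With all barcodes of LT-HSC mouse 1 in the test, Cdk1, Nusap1, Birc5 and Aurkb were higher in LT-HSC, 4 of 48 members, against 5.04% of all genes. None was higher in ST-HSC by this edgeR test, against 3.82% of all genes, and Kif23 was at an unadjusted p under 0.05. Without cells that held 20 or more UMIs of neutrophil or erythroid genes, 5 members were higher in LT-HSC, Cdk1, Nusap1, Ube2c, Birc5 and Aurkb, against 3.75% of all genes. Of 50 other mitosis genes outside the list, Gas2l3 and Pbk were higher in LT-HSC by edgeR and 0 in ST-HSC. At an unadjusted p under 0.05 these were 7 and 1, and by DESeq2 0 in either direction at both limits. Gas2l3, a cytoskeletal linker of dividing cells, had a log2 fold change of 1.03 (SE 0.22), Pbk, a mitotic kinase, 0.83 (SE 0.24), and Spc24, a kinetochore gene, 0.61 (SE 0.21), the last with edgeR adjusted p = 0.0566. Of 43 S-phase genes 0 passed by edgeR, 6 had an unadjusted p under 0.05 toward LT-HSC and 1 toward ST-HSC, and DESeq2 had 0 at both limits. Rad51ap1, Exo1 and Clspn had the smallest p. Of 14 genes of entry into the cycle, Mycn (0.95, SE 0.18) and Ccnd2 (0.58, SE 0.19) were higher in LT-HSC, and Ccnd3 did not pass. Of 16 genes of quiescence, Cdkn1c, the inhibitor p57, was higher in LT-HSC (1.51, SE 0.21) and Trp53inp1 in ST-HSC (-0.81, SE 0.24), while Foxo3 did not pass. By DESeq2, 0 genes of these 2 lists passed, and at an unadjusted p under 0.05 it had 2 cycle entry genes and 1 quiescence gene toward LT-HSC.

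Bulk sums cannot tell few cells with many transcripts from many cells with few, so the members were next counted cell by cell. Each cell was thinned at random to 4000 UMIs, and shallower cells were left out. This left 1168, 2603 and 1678 cells of LT-HSC mouse 2, ST-HSC mouse 1 and ST-HSC mouse 2. LT-HSC mouse 1 kept 12 cells and is not used for shares. A cell had a median of 3 members with a UMI in LT-HSC mouse 2 and 4 in each ST-HSC library. The highest numbers were 36, 37 and 29. Cells with 10 or more of the 48 members are called high-score cells. They were 55 of 1168 cells in LT-HSC mouse 2 (4.71%, exact binomial 95% interval 3.57 to 6.09). In ST-HSC mouse 1 they were 118 of 2603 (4.53%, 3.77 to 5.40), and in ST-HSC mouse 2 58 of 1678 (3.46%, 2.63 to 4.45).

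The intervals overlapped and cover counting error alone. An exact two-sided permutation test over the 3 libraries gave p = 0.667, where the smallest possible value is 0.33. Just inside the limit, 13, 29 and 12 cells held 10 or 11 members, and just outside it 17, 70 and 29 cells held 8 or 9. Without thinning, the shares over all kept cells were 17.3%, 21.0% and 10.1%. With 15 or more members required, they were 2.65%, 2.38% and 2.03%. Before thinning, high-score cells held a median of 20329, 17242 and 12293 UMIs and the other thinned cells 10356, 9806 and 7494.5.

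**Figure D2:**
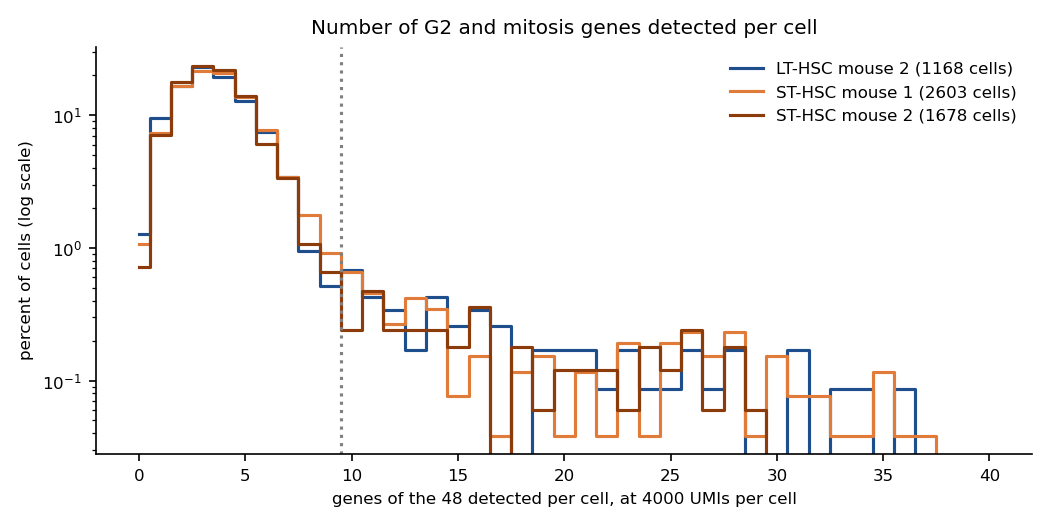
Number of the 48 genes detected per cell at 4000 UMIs (horizontal) and percent of cells on a log axis (vertical), for the 3 libraries with enough cells. The dotted line marks the limit of 10 genes. The 3 lines overlie each other up to about that limit, beyond which a thin tail reaches 36, 37 and 29 genes.

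How far each member was restricted to such cells was read by leaving that member out of its own count. For each member, the share of cells with its UMI was taken among cells with 10 or more of the other 47 members, and among the rest. The rest stands in for cells that should lack these genes, and for shares of cells both kinds had 4000 UMIs. Shares of UMIs use the full counts of these cells. There, high-score cells held 1112935, 2119581 and 734489 UMIs in LT-HSC mouse 2, ST-HSC mouse 1 and ST-HSC mouse 2. The other thinned cells held 11991495, 25661797 and 12735890. A gene spread evenly over UMIs would thus have a larger share of UMIs than of cells in high-score cells. Since members tend to be detected together in the cells that define the classes, these shares are a description without a test. In the other cells, 17 members had a UMI in under 1% of cells in each of the 3 libraries, 10 in over 10%, and 21 lay between.

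The 17 found in under 1% of the other cells were Nusap1, Ube2c, Birc5, Nuf2, Ccnb2, Ckap2l, Aurkb, Bub1, Gtse1, Cdca3, Ttk, Kif2c, Dlgap5, Hmmr, Aurka, Anln and Nek2. Birc5 was found in 62.3%, 56.1% and 62.5% of high-score cells and in 0.807%, 0.763% and 0.555% of the others. These cells, 4.54%, 4.38% and 3.34% of the thinned cells, held 88.1% to 94.1% of its UMIs at full depth. For Hmmr, a protein of spindle poles, they held 94.9% to 98.1% of the UMIs, although 16.4% to 29.3% of high-score cells had one. For Ube2c they held 85.6% to 96.6% and for Ccnb2 87.3% to 92.5%. The class also holds members that were scarce everywhere or less confined. Gtse1 had a UMI in 1.72% to 3.64% of high-score cells. For Ttk, Anln and Aurka, 43.8% to 68.9%, 45.1% to 68.1% and 53.0% to 69.7% of the UMIs lay in high-score cells, with few UMIs behind each share.

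The 10 found in over 10% of the other cells were Hmgb2, Cks2, Cks1b, Tmpo, Smc4, Anp32e, Tubb4b, Kif23, Lbr and Ckap5. Hmgb2 was found in every high-score cell of the 3 libraries and in 59.1% to 69.8% of the others, which held most of its UMIs, since high-score cells had 31.6% to 45.0%. Tubb4b was found in 41.5% to 60.8% of the other cells, and 13.1% to 22.1% of its UMIs lay in high-score cells. For Lbr, the lamin B receptor, these were 9.83% to 14.7%. Some of these members, such as Hmgb2, Tubb4b and Lbr, also have roles outside mitosis, in chromatin, microtubules and the nuclear envelope. Whether such roles account for their UMIs in the other cells was not tested. Of the 10 promoter windows of this class 80% held TTTGAA and 90% CCAAT. In the class under 1%, with 16 windows, these were 56.25% and 68.75%.

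Of the in-between members, Mki67 was found in 66.0%, 55.3% and 53.6% of high-score cells and in 0.987%, 1.45% and 1.05% of the others. Top2a was found in 84.0%, 67.3% and 57.1% and in 6.26%, 7.73% and 4.81%. Cenpf was found in 38.2%, 56.5% and 50% and in 1.53%, 1.93% and 1.54%. Cdc20 was found in 27.8%, 40.5% and 36.8% and in 2.06%, 3.14% and 2.34%. Top2a and Mki67 were most frequent in the high-score cells of LT-HSC mouse 2, and Cenpf and Cdc20 were least frequent there.

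**Figure D3:**
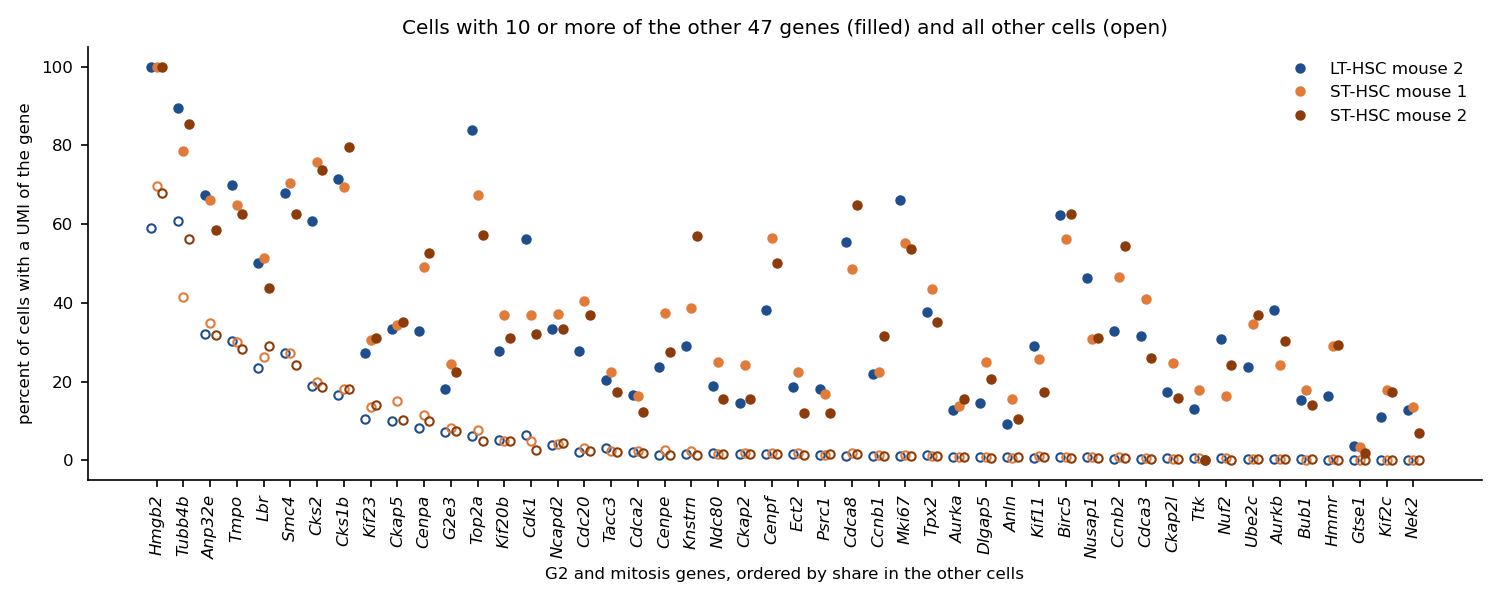
Percent of cells with a UMI of each gene (vertical), among cells with 10 or more of the other 47 genes (filled) and among the other cells (open), at 4000 UMIs, for 3 libraries. Genes run along the horizontal axis by their share in the other cells, from Hmgb2 at 59.1% to 69.8% down to members found in almost none.

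Paralogs were set side by side in the high-score cells. In LT-HSC mouse 2, 3 cells held Aurka alone, 17 Aurkb alone and 4 both. In ST-HSC mouse 1 the numbers were 14, 27 and 3, and in ST-HSC mouse 2 they were 5, 15 and 4. Ccnb2 alone was more frequent than Ccnb1 alone, at 7 against 1, 35 against 7 and 16 against 3 cells. Most high-score cells held both Cks1b and Cks2 in ST-HSC mouse 1 (71 of 118) and ST-HSC mouse 2 (37 of 58), and 27 of 55 did in LT-HSC mouse 2. Near-identical genes can share 3' tags, so the split within a pair is uncertain where the sequences match.

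At matched depth over all thinned cells, Top2a had a UMI in 9.59% of cells of LT-HSC mouse 2 (7.96 to 11.4), 10.2% of ST-HSC mouse 1 (9.05 to 11.4) and 6.56% of ST-HSC mouse 2 (5.42 to 7.85). Mki67 had 3.94% (2.90 to 5.22), 3.80% (3.1 to 4.61) and 2.80% (2.07 to 3.71). For Cenpf the shares were 3.25% (2.31 to 4.44), 4.34% (3.59 to 5.20) and 3.22% (2.43 to 4.18). For Cdc20 they were 3.25% (2.31 to 4.44), 4.80% (4.01 to 5.70) and 3.52% (2.69 to 4.51). LT-HSC mouse 2 lay between the ST-HSC libraries for Top2a and Cenpf, above both for Mki67 and below both for Cdc20. Its interval and that of ST-HSC mouse 2 did not overlap for Top2a, and overlapped for the other 3 genes. For Top2a this depended on depth. The 2 intervals overlapped at 3000 UMIs (5.66 to 8.66 and 4.22 to 6.40) and at 6000 UMIs (10.4 to 14.3 and 8.75 to 12.0).

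The pooled mitotic pair was lower relative to the G2 pair in both LT-HSC libraries. UMIs of Cenpf and Cdc20 were divided by UMIs of Top2a and Mki67. This ratio was 0.366 over all barcodes of LT-HSC mouse 1 (exact 95% interval 0.325 to 0.412, 387 against 1056 UMIs). It was 0.380 in LT-HSC mouse 2 (0.343 to 0.420, 534 against 1407), 0.487 in ST-HSC mouse 1 (0.456 to 0.521, 1311 against 2690) and 0.553 in ST-HSC mouse 2 (0.491 to 0.623, 433 against 783). With the 2 mitotic genes pooled, both LT-HSC libraries lay below both ST-HSC libraries, and LT-HSC was lower in each mouse. The exact two-sided permutation test gave p = 0.33, the smallest that 2 against 2 libraries allow. In the same order of libraries, Cenpf had 170, 322, 786 and 209 UMIs and Cdc20 had 217, 212, 525 and 224. Per UMI of the G2 pair, Cenpf alone was lower in both LT-HSC libraries than in both ST-HSC libraries. Cdc20 alone overlapped between the gates, and in mouse 1 it was not lower in LT-HSC. The kept cells of LT-HSC mouse 1 held 1 against 3 UMIs, too few for a ratio. The intervals cover counting error and treat UMIs as independent, though many came from the same cells.

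High-score cells were chosen by members that include Top2a, Mki67, Cenpf, Cdc20 and the late members. Values of these genes there are a description without a test and add no support for a difference between the gates. In the high-score cells the ratio was 0.357 in LT-HSC mouse 2 (0.318 to 0.401), 0.533 in ST-HSC mouse 1 (0.493 to 0.576) and 0.532 in ST-HSC mouse 2 (0.457 to 0.618). With thinned UMIs, where each cell has the same total, these were 0.327, 0.714 and 0.789. In the other thinned cells, which held fewer of these UMIs, the ratio at full counts was 0.460 (0.371 to 0.567), 0.388 (0.340 to 0.442) and 0.577 (0.472 to 0.703). There LT-HSC mouse 2 lay between the ST-HSC libraries, but with thinned UMIs it did not. Over all thinned cells, Cenpf and Cdc20 then had 115, 400 and 177 UMIs, of which high-score cells held 72, 270 and 112. Top2a and Mki67 had 305, 621 and 246, of which high-score cells held 220, 378 and 142. Of the high-score cells, 49.1% of LT-HSC mouse 2 held a UMI of Cenpf or Cdc20 (35.4 to 62.9), against 66.1% (56.8 to 74.6) and 60.3% (46.6 to 73.0) in the ST-HSC libraries. Those with Top2a or Mki67 were 89.1% (77.8 to 95.9), 83.9% (76.0 to 90.02) and 72.4% (59.1 to 83.3). Cells with the G2 pair alone were 25 of 55, 33 of 118 and 16 of 58, and cells with the mitotic pair alone were 3, 12 and 9. The intervals of the shares overlap between LT-HSC mouse 2 and each ST-HSC library. With all 11 late members in place of the mitotic pair (among them Ccnb1, Aurka, Cenpe, Cenpa and Hmmr), the ratio in kept cells was 1.40, 1.95 and 2.27, and 1.59 over all barcodes of LT-HSC mouse 1.

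**Figure D4:**
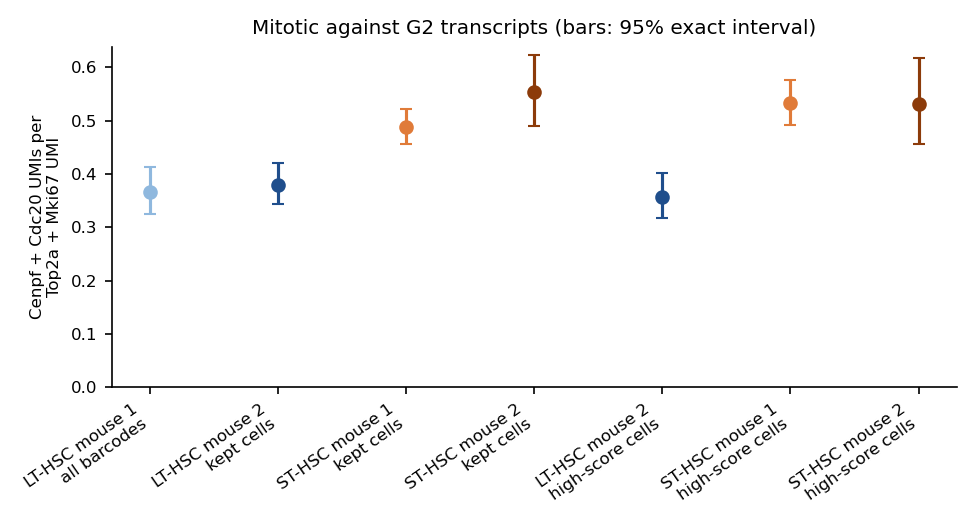
UMIs of Cenpf and Cdc20 per UMI of Top2a and Mki67 (vertical) for each library, over all barcodes, kept cells or high-score cells, with exact 95% intervals as bars. The LT-HSC points lie at 0.357 to 0.380 and the ST-HSC points at 0.487 to 0.553.

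Genes outside the list were compared between high-score and other cells, to see what else these cells expressed. Counts were summed per library over each kind of cell and tested with edgeR's quasi-likelihood test, with the library as a block. The members are left out, since they chose the cells. Of 11750 other genes, 1948 were higher (16.6%) and 1673 lower (14.2%) in high-score cells. Of 50 other mitosis genes 49 were higher, all but Pttg1, with a median log2 fold change of 3.38 against -0.07 over all genes tested. Ccna2, cyclin A2 of S and G2 phase, stood at 122, 131 and 124 CPM in high-score cells of LT-HSC mouse 2, ST-HSC mouse 1 and ST-HSC mouse 2. In the other cells it stood at 1.33, 0.818 and 0.864 CPM. Its log2 fold change was 7.03 (SE 0.17). Those of Spc24 and Pbk were 4.41 (SE 0.10) and 5.52 (SE 0.16). Gas2l3 stood at 49.4, 58.0 and 54.5 CPM in high-score cells and at 26.4, 10.6 and 12.2 CPM in the others. For Gas2l3, LT-HSC mouse 2 was thus the highest library only in the other cells. Pbk stood at 203, 121 and 118 CPM in high-score cells and at 2.84, 3.51 and 2.59 CPM in the others.

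All 43 S-phase genes tested were also higher, with a median of 1.85. Rrm2, a subunit of ribonucleotide reductase, stood at 222, 156 and 200 CPM in high-score cells and 5.92, 6.51 and 7.22 CPM in the others (log2 fold change 4.84, SE 0.12). Tyms, which makes thymidylate, had 3.01 (SE 0.09) and Rrm1 2.38 (SE 0.09). The level of S-phase genes was not highest in the cells with most members. Cells of LT-HSC mouse 2 with 0 to 4, 5 to 9, 10 to 19 and 20 or more members held on average 4.42, 8.65, 28.3 and 19.6 UMIs of the 43 genes per 4000 UMIs. In ST-HSC mouse 1 these were 4.71, 8.36, 22.5 and 9.67, and in ST-HSC mouse 2 4.38, 7.25, 19.6 and 8.90. The last class held 19, 48 and 21 cells, and its spread was wide (SD 13.3, 9.35 and 8.71 over cells).

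**Figure D5:**
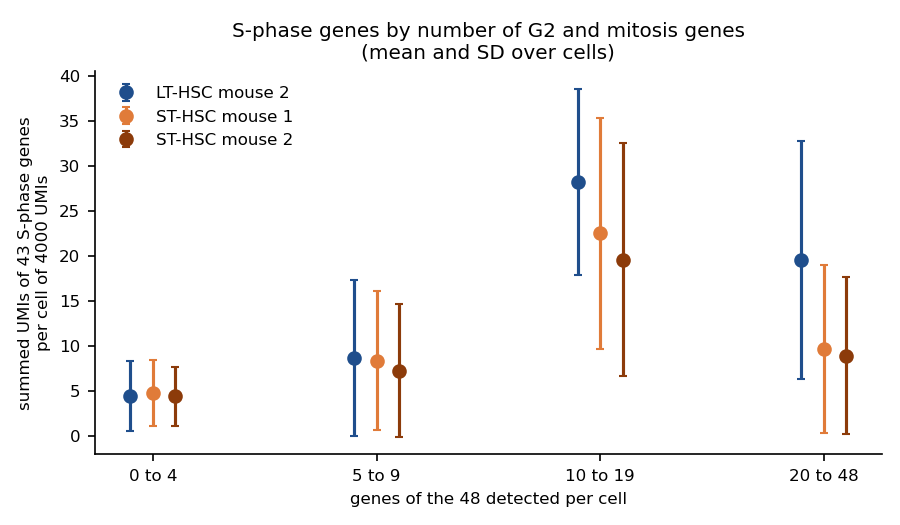
Summed UMIs of 43 S-phase genes per cell of 4000 UMIs (vertical) against the number of the 48 genes detected (horizontal classes), as mean and SD over cells in 3 libraries. The mean is highest with 10 to 19 genes, at 19.6 to 28.3 UMIs, and lower again with 20 or more.

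Of 14 genes of entry into the cycle, 8 were higher and 4 lower in high-score cells. The E-type cyclins Ccne2 and Ccne1 were higher (3.55, SE 0.21, and 3.81, SE 0.30). Ccnd2, the cyclin D2 that links growth signals to the cycle, stood at 123, 105 and 72.2 CPM against 289, 210 and 180 CPM in the other cells and was lower (-1.15, SE 0.10). Of 16 genes listed for quiescence, 7 were higher and 4 lower. The higher ones with the smallest p were Cdkn2c (2.27, SE 0.20), the inhibitor p18, Rbl1 (1.31, SE 0.13), which is p107, and Lin9 (1.55, SE 0.16), a subunit of MuvB. MuvB also takes part in activating mitotic genes. The 4 lower ones were Cdkn1c (-0.92, SE 0.15), E2f5 (-2.04, SE 0.37), Txnip (-0.62, SE 0.12) and Foxo3 (-0.47, SE 0.11).

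Of 15 genes of long-term HSCs, 9 were lower in high-score cells by edgeR. DESeq2 had 6 lower, and edgeR without LT-HSC mouse 2 had 6 of 14 tested. None was higher by edgeR or DESeq2, and at an unadjusted p under 0.05 edgeR had 0 higher and 11 lower. Procr, the protein C receptor of HSCs, stood at 30.6, 45.3 and 43.6 CPM in high-score cells and 122, 99.1 and 112 CPM in the others (log2 fold change -1.43, SE 0.14). Mllt3, a regulator of HSC maintenance, stood at 85.4, 52.8 and 34.0 CPM against 272, 95.3 and 92.4 CPM (-1.29, SE 0.14). Hlf, a transcription factor of HSCs, had -0.67 (SE 0.09). At 4000 UMIs Procr had a UMI in 12.7%, 17.8% and 15.5% of high-score cells and in 37.9%, 32.6% and 35.2% of the others. Procr and Mllt3 were lower in the high-score cells of each of the 3 libraries.

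Of 11 progenitor genes tested, 6 were higher and 2 lower. Cd48, whose product both gates excluded, stood at 9.88, 28.3 and 68.1 CPM against 1.5, 11.7 and 15 CPM (log2 fold change 1.83, SE 0.24). Plac8 had 0.46 (SE 0.08) and Dntt 1.95 (SE 0.36). Dntt stood at 49.1 against 8.34 CPM in ST-HSC mouse 1 and at 13.6 against 10.7 in ST-HSC mouse 2, and without ST-HSC mouse 1 it did not pass (0.57, edgeR adjusted p = 0.579). Nor did it pass without the replicate block (edgeR adjusted p = 0.283) or by DESeq2 (adjusted p = 0.182). Markers of other blood lineages moved with these counts. Erythroid genes were higher for 7 of 8 tested and neutrophil genes for 3 of 9, with 1, Ngp, lower (-4.37, SE 0.38). Of the 231 high-score cells, 4 held 20 or more erythroid UMIs and 3 held 20 or more neutrophil UMIs, against 91 and 27 of 5218 other cells. Without such cells, of 5 erythroid genes tested Epor was higher and the globins Hbb-bt (-1.06, SE 0.13) and Hbb-bs (-1.72, SE 0.40) were lower. Of 5 neutrophil genes Ctsg was higher and Prtn3 lower (-0.87, SE 0.08). The counts of other mitosis genes (49), S-phase genes (43) and lower long-term HSC genes (9) were the same. The progenitor genes were then 5 higher and 0 lower by edgeR, 3 of them lower at an unadjusted p under 0.05, and Plac8 did not pass (0.15, adjusted p = 0.248).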

How the data were processed

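Single-cell RNA was measured in 4 libraries, LT-HSC and ST-HSC of 2 mice. The authors deposited raw UMI counts per gene and barcode, produced by Cell Ranger 3.1.0 on build mm10 per the submitters' processing notes; per the file headers the matrices carry version 3.0.2. The sources used here do not say how barcodes were selected for deposit or whether doublets were removed. No doublet caller was run, and cells above 3 times their library's median UMIs were left out as an alternative.

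Groups and mouse numbers came from the labels. The members and the gene lists were chosen with earlier results of these data known. Cells were not replicates: counts were summed per library and tested with edgeR 4.0.16 in R 4.3.3 (TMM scaling, filterByExpr, quasi-likelihood test, Benjamini-Hochberg adjustment over all genes tested), with DESeq2 1.42.0 as an alternative. Total counts per library were 115305, 13249904, 27870823 and 13566531 UMIs over kept cells in the order LT-HSC mouse 1, LT-HSC mouse 2, ST-HSC mouse 1 and ST-HSC mouse 2, so 3 UMIs, the limit that a count of 0 allows, stand for 26.0, 0.226, 0.108 and 0.221 CPM. Intervals are exact (Clopper-Pearson) at 95% and cover counting error. Both gates came from the same mice. After removal of the gate means, libraries of the same mouse correlated at 0.183 over 6042 genes of at least 20 CPM, and the mouse was used as a block in an alternative. Which culture, day or lane each library came from is not given, so p-values refer to these libraries only. The edgeR fit draws the spread of a gene largely from other genes, so its SE and p do not measure that gene's own spread. In the kept cells, Tubb4b (121, 331, 187 and 281 CPM) had an SE of 0.19. Hmgb2 (425, 517, 571 and 532 CPM) had 0.20.

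Cells were thinned to 4000 UMIs with fixed seeds (Python 3.11.15, numpy 2.4.6, scipy 1.17.1), and LT-HSC mouse 1, with 12 such cells, was left out of shares, which required 50. Motifs were searched in RefSeq promoter windows. Tested on simulated counts with log2 changes of 1 and 2, each in 100 genes of at least 20 CPM, the gate fit recovered 91% and 100% with 17 false calls among 12495 genes, and the fit of high-score cells 94% and 100% with 4 among 11615. The simulated counts used the spread that the fits themselves had estimated and no difference between mice. Recovery and false calls therefore check the calculation and not the spread of the real libraries. Many members lie below 20 CPM, and recovery was not tested there.

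Named were Top2a, Mki67, Cenpf, Cdc20, each member past the threshold between the gates, in each role group the 2 members with the highest mean CPM over the libraries, the paralog pairs, and the 3 genes with the smallest p of each list of other mitosis, S-phase, cycle entry, quiescence, long-term HSC and progenitor genes. Kif11, Cenpe, Hmmr, Bub1, Ttk, E2f5, Txnip and the members listed by class, direction or overlap were named after their values were seen. Lists of megakaryocyte, mast cell and basophil, macrophage and dendritic, and B and T cell markers were also counted.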

Additional observations from a re-analysis of the deposited data

Results flagged for a closer look

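The summed level of the 48 members moved in opposite directions between the gates of the 2 mice. In mouse 1, LT-HSC minus ST-HSC was -632 CPM over the kept cells, and in mouse 2 it was 240 CPM. The difference between the mice was not tested, since each mouse gave 1 library per gate. The value of mouse 1 rests on 165 member UMIs in 22 cells. Over all barcodes of LT-HSC mouse 1 it was -236 CPM, and with cells of 500 genes and 1000 UMIs -185 CPM.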

How the results depend on the processing

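Of 259 recomputed counts, shares, ratios and summed levels, 189 stayed within 1.5 times or within the spread of the value reported and 70 moved. Fold changes of single genes and shares of cells with a single gene were counted apart. Of these 302 stayed the same, 17 fold changes changed sign, 18 gained a call and 18 lost one. Another 26, all of them shares of cells, moved with the thinning depth. Depth limits most what can be said of LT-HSC mouse 1, whose kept cells give 3 UMIs a weight of 26.0 CPM. The cause of each change was not tested.

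The count of members higher in LT-HSC, 2 as reported, was 7 with the replicate block, 4 with all barcodes of LT-HSC mouse 1, 4 with both, 4 without neutrophil-marker cells, 5 without neutrophil- or erythroid-marker cells, 1 with cells of 500 genes and 1000 UMIs, and 0 by DESeq2. Leaving out each library in turn gave 0 to 3, and 0 to 1 members higher in ST-HSC, the latter Cenpe (-0.74, edgeR adjusted p = 0.0159) without ST-HSC mouse 2. Genes higher in LT-HSC were 455, but 29 by DESeq2, 849 with all barcodes and the block, and 1 to 602 with a library left out, the lowest without LT-HSC mouse 2. Genes higher in ST-HSC were 396, but 25, 628 and 0 to 365. The median log2 fold change of the members ranged from -0.62, without LT-HSC mouse 2, to 0.41. The pairing by mouse rests on the shared animal, and the block left the direction of 10 of the 11 members followed.

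Single members changed sign as follows. With a library left out, the log2 fold change between the gates ranged from -1.75 to 0.66 for Top2a, -1.55 to 0.88 for Mki67, -1.46 to 0.58 for Cenpf, -0.40 to 1.22 for Nusap1, -1.03 to 0.96 for Ube2c, -9.76 to 0.81 for Aurkb, -0.52 to 0.70 for Birc5 and -0.74 to 0.24 for Cenpe. The lowest came without LT-HSC mouse 2, except for Cenpe. The value of Aurkb there is set by a count of 0 and is no bound. By DESeq2, Top2a had -0.14 and Cenpf -0.12. With all barcodes of LT-HSC mouse 1 Cenpf had -0.17, and -0.15 with the block as well. With the block Cenpe had 0.19. The edgeR adjusted p of Cdk1 ranged over the alternatives from 0.000836 to 1 (DESeq2) and that of Nusap1 from 9.04e-05 to 1.

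In high-score cells, genes outside the list that were higher numbered 1948 but 1283 with no replicate block. Those lower numbered 1673, but 1066 with 15 or more members required, 726 with no replicate block, 659 by DESeq2 and 1006 to 1471 with a library left out (1006 without ST-HSC mouse 1, 1078 without ST-HSC mouse 2). Higher ones ranged from 1382 to 1921 with a library left out. With no replicate block, 3 long-term HSC genes were lower, 0 progenitor genes higher and 0 lower, 4 erythroid and 0 neutrophil genes higher. DESeq2 had 3 progenitor genes higher and 0 lower. With 15 or more members, 1 progenitor gene was lower and 5 cycle entry genes higher. Without neutrophil- or erythroid-marker cells, 0 progenitor genes were lower, and 1 erythroid and 1 neutrophil gene higher. Without neutrophil-marker cells 1 neutrophil gene was higher. With a library left out, 0 to 3 progenitor genes were lower (0 without ST-HSC mouse 1) and 3 to 5 neutrophil genes higher (5 without LT-HSC mouse 2). Dntt lost its call without ST-HSC mouse 1 (0.57, edgeR adjusted p = 0.579). The counts of other mitosis and of S-phase genes stayed within 1.5 times under all 10 alternatives.

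Shares of high-score cells in LT-HSC mouse 2, ST-HSC mouse 1 and ST-HSC mouse 2 were 6.16%, 7.22% and 5.19% with 8 members required, 2.65%, 2.38% and 2.03% with 15, and 6.38%, 7.23% and 5.98% at 6000 UMIs. At 3000 UMIs ST-HSC mouse 1 had 3.48%. Without thinning they were 17.3%, 21.0% and 10.1%, and 18.0%, 21.3% and 10.2% over cells of 4000 or more UMIs. The mitotic to G2 ratio of high-score cells was 0.409, 0.662 and 0.708 with 15 members, and 1.17, 1.83 and 1.97 with all late members. In kept cells the late members gave 1.40, 1.95 and 2.27. With 8 members ST-HSC mouse 1 had 0.492. With thinned UMIs ST-HSC mouse 1 had 0.714 in high-score and 0.644 in all thinned cells, and ST-HSC mouse 2 had 0.789 and 0.720. LT-HSC mouse 2 lay below both ST-HSC libraries in each of these, though not at full counts in the cells outside the high-score class. The alternatives without neutrophil- or erythroid-marker cells, with thinned UMIs, all barcodes or without large cells for the ratio, with all barcodes and the block, and without thinning at 4000 or more UMIs were chosen after the data were seen.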

Other observations

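Other cell type lists were counted in the same comparisons. Between the gates, edgeR had Gp9 (log2 fold change 1.47, SE 0.22) and Itga2b (1.09, SE 0.22), genes of platelets and their precursors, higher in LT-HSC, and Plek (-1.24, SE 0.23) in ST-HSC. In high-score cells 1 of 5 megakaryocyte genes tested was lower and 0 higher, 1 of 2 mast cell and basophil genes was lower, 2 of 6 macrophage and dendritic genes were higher and 1 lower, and 1 of 2 B and T cell genes was higher. Among long-term HSC genes between the gates, Clec1a (3.31, SE 0.24), Slamf1 (4.43, SE 0.33) and Vwf (2.84, SE 0.28) had the smallest p and were higher in LT-HSC, where 10 of 15 were. Of the progenitor genes all 11 tested were higher in ST-HSC, with Ighm (-6.15, SE 0.41), Flt3 (-3.33, SE 0.23) and Cd52 (-3.07, SE 0.23) first. Of 10 neutrophil genes 9 were higher in ST-HSC and of 10 erythroid genes 6, with 1 higher in LT-HSC. DESeq2 called fewer: 4 long-term HSC genes higher in LT-HSC, and 7 progenitor, 5 neutrophil and 1 erythroid gene higher in ST-HSC. Of the megakaryocyte genes it called 0, with 1 at an unadjusted p under 0.05.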
